A study of Populus trichocarpa with 18 samples.

Results

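The comparison is between control protoplasts of Populus trichocarpa (black cottonwood) sampled at 12 h and at 7 h after transfection. Its members are 6 of the 18 libraries of the series, chosen by the file's column names, with 3 libraries at each time that carry the replicate numbers 1 to 3, and each 12 h library was compared with the 7 h library of its own number. All the cells were made from stem-differentiating xylem of greenhouse plants, and the control plasmid was sGFP, a green fluorescent protein, delivered with polyethylene glycol (PEG). The only difference between the 2 groups that the labels give is the time. The other construct of the series, PtrSND1-B1 with sGFP, was sampled at the same times in 3 libraries each and serves below as a separate set of libraries over the same span.

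Stem-differentiating xylem is the layer inside the cambium where young wood cells expand and then lay down secondary walls of cellulose, xylan and lignin. A protoplast is a plant cell whose wall has been digested away, and in culture such cells respond to the isolation and can begin to build a new wall. PEG lets plasmid DNA cross the bare plasma membrane, and a reporter plasmid such as sGFP shows what transfection and time in culture do without a regulatory gene. None of the gene identifiers in the counts was paired with a name or function in the files or in the reference gene table, so no gene below is given a role. For the same reason the xylem label could not be checked against marker genes, and planned lists of wall, stress and hormone genes were not made. Bulk RNA cannot tell fewer cells of a type from less RNA per cell, and this holds for every result below.

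Each value is a count of reads for the first listed gene model of a locus. The 3 libraries at 7 h held 3541698 to 5454419 counts over these models, and the 3 at 12 h held 4746555 to 9107896. Levels are counts per 1000000 counts of the library (CPM), with library sizes scaled by TMM, which brings the bulk of genes to a common level. The 12 h replicate 1 library stood apart from the other sGFP libraries of 7 and 12 h. Its 100 most abundant genes took 18.5% of its counts, against 12.5% and 12.9% in 12 h replicates 2 and 3 and 11.8 to 12.3% in the 7 h libraries. The PtrSND1-B1 12 h library of the same number was alike, with 18.1% against 12% and 12.4% in its group. At 25 h the share was 19.7%, 14.7% and 21.1% in sGFP replicates 1, 2 and 3 and 15.8 to 20.6% in PtrSND1-B1 libraries. In sGFP protoplasts the mean share was 14.6% ± 3.34 (SD, n = 3) at 12 h and 12.1% ± 0.249 (SD, n = 3) at 7 h, a two-sided p of 0.1 by exact permutation, which is the minimum for 3 libraries on each side. Inside replicate numbers the exact permutation p was 0.25, the minimum for 8 sign arrangements. The labels do not say whether replicates came from separate plants or isolations, so the p-values rest on a spread between libraries that may be wholly technical.

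Between 7 and 12 h, 688 genes rose and 846 fell in the control protoplasts, which is 6.45% of the 23777 genes tested (2.89% higher and 3.56% lower). The call was an adjusted p under 0.05 by edgeR's quasi-likelihood test with Benjamini-Hochberg adjustment and the replicate number as a block. The rises were the larger changes, with a median of 1.15 on the log2 scale and quartiles of 0.78 and 1.75. The falls had a median of -0.86 and quartiles of -1.15 and -0.63. The median over all genes tested was -0.0034. At least a 2-fold change was reached by 403 of the rises (58.6%) and 305 of the falls (36.1%), and at least a 4-fold change by 109 rises and 12 falls. At least an 8-fold change was reached by 28 rises and 0 falls. These folds are estimates from the same libraries that made the calls, so they run high for genes near the threshold. A further 1168 genes had an estimate of at least 2-fold and were not called, among them the largest estimate of all, 6.47 on the log2 scale.

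**Figure D1:**
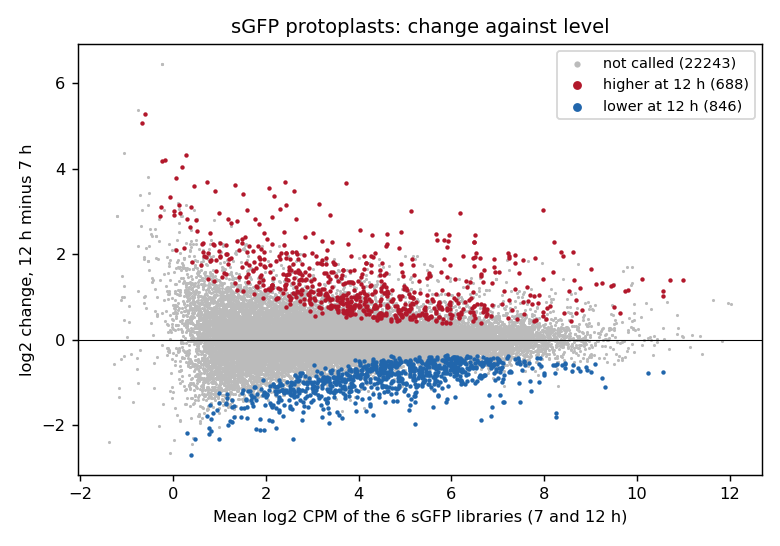
Log2 change from 7 to 12 h in sGFP protoplasts for each of 23777 genes (vertical axis) against its mean log2 CPM over the 6 libraries (horizontal axis). Red points are the 688 genes called higher at 12 h and blue points the 846 called lower. The red points reach further from 0 than the blue ones, up to 5.27 against -2.71.

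The count depended on the comparison being made inside replicate numbers. Without the block, edgeR called 36 genes higher and 19 lower, all 55 of them among the 1534. Before adjustment, 5315 genes had a p under 0.05 with the block and 2898 without it. With the 9 sGFP libraries alone in the blocked fit the total was 278. With the 6 libraries of 7 and 12 h alone it was 1701, with more rises (936) than falls (765). Single libraries also moved the total. It was 767, 615 and 822 without 7 h replicate 1, 2 or 3, and 717 and 411 without 12 h replicate 1 or 2. Leaving out all libraries of number 1 gave 261, of number 2 gave 95 and of number 3 gave 1923, each with fewer residual degrees of freedom than the full fit. With both 12 h libraries of number 1 left out, the pair that stood apart, 480 genes were called higher and 415 lower.

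The 3 pairs moved in the same direction. For the 688 genes that rose, the median difference of log2 CPM was 1.07 in number 1, 1.14 in number 2 and 1.02 in number 3. For the 846 that fell it was -0.81, -0.94 and -0.68. All 3 pairs showed the direction of the call in 686 of the rises and in all 846 falls, against 5259 genes up and 5667 down in all 3 pairs among all genes tested. Because the blocked test itself rewards such agreement, these counts describe the called genes and are no separate support. Replicate 2 gave the largest difference of the 3 for 489 of the falls (57.8%), against 41.1% of all genes tested. For the rises, replicates 1 and 2 gave the largest difference about as often, in 270 and 271 genes (39.2% and 39.4%). Over all genes tested these shares were 35.4% and 41.1%, so the rises were near them. Over all 23777 genes, which are not independent replicates, the differences of 2 pairs had a Pearson correlation of 0.422 (numbers 1 and 2), 0.406 (1 and 3) and 0.485 (2 and 3).

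The levels of the 2 times were apart for most of the called genes, also when the numbers were ignored. The genes were chosen by their difference in these same 6 libraries, so this separation describes them and is no separate support. All 3 libraries of 12 h lay above all 3 of 7 h in 533 of the 688 rises, where 7.81% of all genes tested did so. They lay below in 550 of the 846 falls, where 9.02% of all genes did so. For the other 155 rises and 296 falls the groups overlapped. Without the block 55 of the 1534 were called, and how these divide between genes with groups apart and groups overlapping was not examined. The common coefficient of variation that edgeR estimated over all 18 libraries was then 29%, against 19.2% with the block. The median coefficient of variation between libraries of a group was 27.4% at 7 h and 31.1% at 12 h for the genes that rose. It was 23.4% and 25.5% for those that fell, and 22% and 22.9% over all genes tested.

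The 2 genes described next had the largest rises under the rule for named genes, which asked for a call, the same direction in all 3 pairs and a mean of at least 5 CPM at the higher time. POPTR_0473s00220.1 was at 1.91, 3.21 and 0.171 CPM in 7 h replicates 1, 2 and 3 and at 19.2, 45.4 and 5.63 CPM in 12 h replicates 1, 2 and 3. Every 12 h library was above every 7 h library, and at both times replicate 2 was the highest and replicate 3 the lowest. Replicate 3 at 7 h held a single read of this gene, so its difference rests on little. The mean rose from 1.77 ± 1.53 to 23.4 ± 20.2 CPM (SD, n = 3), or by 3.69 on the log2 scale with an SE of 0.397 (adjusted p = 0.000149, edgeR). The adjusted p was 0.135 without the block.

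POPTR_0001s46340.1 was at 4.1, 1.5 and 5.81 CPM in 7 h replicates 1, 2 and 3 and at 98.5, 35.4 and 30.2 CPM in the 12 h replicates. The groups did not overlap, and replicate 1 was far above the others at 12 h although not at 7 h. The mean rose from 3.8 ± 2.17 to 54.7 ± 38 CPM (SD, n = 3), or by 3.68 on the log2 scale with an SE of 0.489 (adjusted p = 0.000688, edgeR). The estimate was 3.47 without 12 h replicate 1 (edgeR adjusted p = 0.00391) and did not pass with all libraries of number 2 left out (3.44, adjusted p = 0.0931). Both genes were higher still in the separate 25 h control libraries, at 126 ± 68.1 and 340 ± 159 CPM (SD, n = 3).

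The largest falls by the same rule were smaller. POPTR_0014s11370.1 was at 11.5, 36.4 and 3.59 CPM in 7 h replicates 1, 2 and 3 and at 2.8, 4.31 and 1.41 CPM in the 12 h replicates. Its groups overlapped, because 12 h replicate 2 was above 7 h replicate 3, yet the level fell inside each number. On the log2 scale the change was -2.33 with an SE of 0.485 (adjusted p = 0.0113, edgeR). It did not pass without 7 h replicate 2 (-1.89, adjusted p = 0.103) or 12 h replicate 2 (-1.97, adjusted p = 0.13), nor without the block (adjusted p = 0.198) or with only the 9 sGFP libraries (adjusted p = 0.0793). With all libraries of number 1 or 2 left out the adjusted p was 0.103 and 0.313.

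POPTR_0019s14280.1 was at 6.56, 18.9 and 2.39 CPM in 7 h replicates 1, 2 and 3 and at 1.65, 2.36 and 1.41 CPM in the 12 h replicates. The groups were apart by a small margin, between 2.36 and 2.39 CPM, and at both times the order of the numbers was 2, 1, 3, as for POPTR_0014s11370.1. On the log2 scale the change was -2.12 with an SE of 0.413 (adjusted p = 0.00775, edgeR). It did not pass without 7 h replicate 2 (-1.85, adjusted p = 0.0688) or 12 h replicate 2 (-1.55, adjusted p = 0.113), without the block (adjusted p = 0.22), or with only the 9 sGFP libraries (adjusted p = 0.0635). With all libraries of number 1 or 2 left out the adjusted p was 0.0697 and 0.345.

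**Figure D2:**
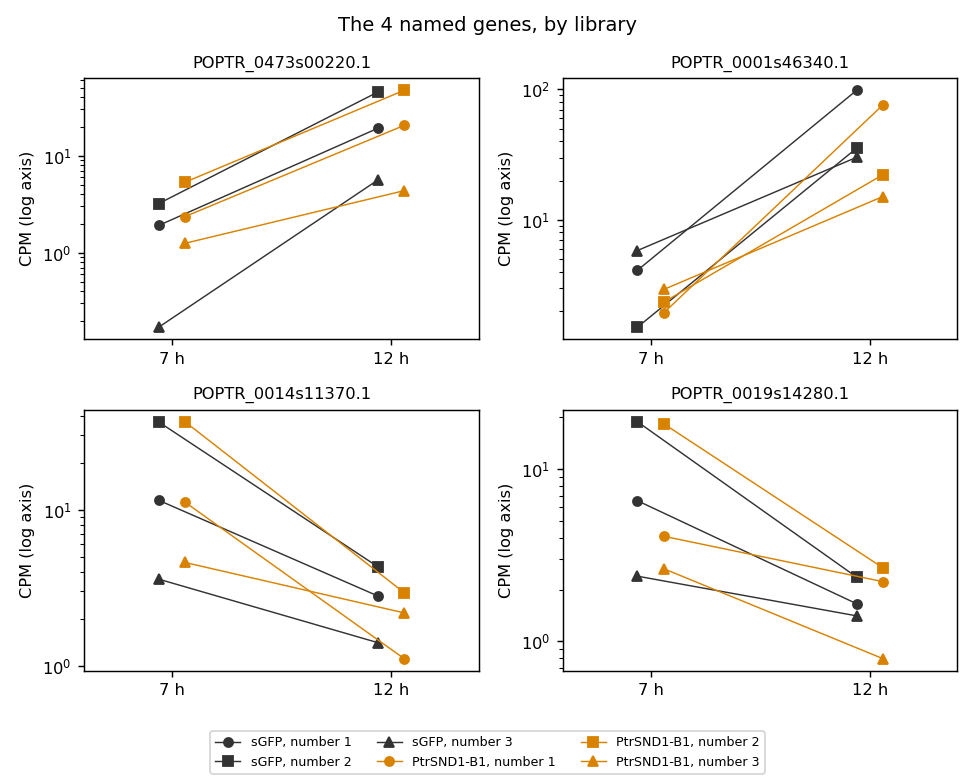
CPM (log axis) of the 4 named genes at 7 and 12 h, a panel for each gene and a line for each replicate number, in sGFP (dark) and PtrSND1-B1 (orange) libraries. All 6 lines rise in the upper panels and fall in the lower ones, and the vertical spread between numbers at 7 h is wide in both genes that fell, from 3.59 to 36.4 CPM and from 2.39 to 18.9 CPM in sGFP libraries.

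The genes that rose started lower than those that fell. Because the genes were chosen by these same levels, the values here describe the called genes only. The median level of the rising genes was 10.9 CPM at 7 h and 23.5 CPM at 12 h, against 13.2 and 13.6 CPM for all genes tested. The falling genes went from a median of 34.6 to 20 CPM. The rising genes together took 2.88 to 3.04% of a library's counts at 7 h and 5.54 to 7.45% at 12 h. The falling genes took 5.97 to 6.27% and then 3.11 to 3.76%. In both measures 12 h replicate 1 was at one end and 12 h replicate 3 at the other. Of the genes that rose, 2 had 0 reads in all 3 libraries of 7 h and 15 and 18 reads in those of 12 h together, and none of the falls ended at 0 reads in all 3 libraries. Among all genes tested only 8 had 0 reads in the 3 libraries of 7 h and only 1 in those of 12 h. Few such calls were therefore possible, and these counts are no contrast between rises and falls.

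Rises and falls were spread differently over expression levels. Among genes at 300 CPM or more, averaged over the 6 libraries, 30 of 394 rose (7.61%) and 21 fell (5.33%), and 23 of those rises but only 3 of the falls were at least 2-fold. Between 30 and 100 CPM falls were more numerous, with 288 of 5000 genes (5.76%) against 146 rises (2.92%). Under 3 CPM, 61 of 3826 genes rose (1.59%) and 28 fell (0.732%), all by at least 2-fold. At that level no change smaller than 1.15 on the log2 scale was called and the median SE was 0.469, whereas between 30 and 100 CPM changes down to 0.37 were called with a median SE of 0.146. Smaller changes in genes of low level can therefore have gone uncalled. Of the 100 most abundant genes 12 rose and 3 fell, where 2.89% of all genes tested rose and 3.56% fell.

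**Figure D3:**
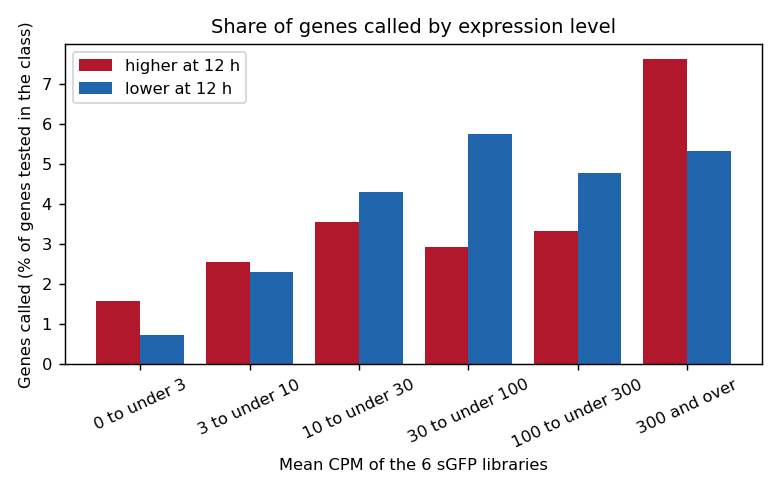
Share of the genes tested in each class of mean CPM (horizontal axis) that were called higher (red) or lower (blue) at 12 h in sGFP protoplasts, in percent (vertical axis, from 0). Blue exceeds red from 10 to 300 CPM, and red exceeds blue at 300 CPM and over, 7.61% against 5.33%.

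The span from 7 to 12 h could be followed again in PtrSND1-B1 protoplasts, in libraries other than the 6 of the control comparison. All 18 libraries were fitted together, however, so both sets of calls used a common estimate of the spread for each gene. There 705 genes rose and 1003 fell, 7.18% of the genes tested, by the same edgeR fit. Of the 688 control rises 463 (67.3%) were also called higher and 0 lower, where 2.97% of all genes tested were called higher. Of the 846 control falls 560 (66.2%) were also called lower and 0 higher, where 4.22% of all genes were called lower. All 688 rises and 843 of the 846 falls had the same sign in the PtrSND1-B1 libraries, where 79.9% of all genes tested had the same sign in both constructs. The shared 1023 genes are 66.7% of the control calls and 59.9% of the PtrSND1-B1 calls. Libraries of equal time and number deviated together in both constructs, with correlations of their deviations from the group mean of 0.345 to 0.752. The constructs are therefore no independent repeats of the time course. How much of the shared calls comes from this or from the common spread estimate was not tested.

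For the 1023 genes called in both constructs, the median size of the change (log2, without sign) was 0.979 in sGFP and 0.986 in PtrSND1-B1 protoplasts. Genes called only in sGFP had medians of 0.897 and 0.553, and genes called only in PtrSND1-B1 had 0.543 and 0.853, an order that follows from how they were chosen. The difference between constructs, tested directly, was called for 0 genes by edgeR and 0 by DESeq2. Before adjustment, 271 genes (1.14%) had a p under 0.05 with edgeR and 229 with DESeq2. Where no gene differs, a share near 0.05 is expected, so this test was conservative here. The fit holds no term for the deviations that libraries of equal time and number share between constructs. The 0 calls therefore do not show equal changes. For the 1534 control calls the 95% interval of the difference, which uses the same error, reached a median of 0.604 to either side on the log2 scale. Without all libraries of number 1 or 2 the PtrSND1-B1 total of 1708 became 241 or 61, and without both 12 h libraries of number 1 it became 1036.

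The named genes changed in the same direction in PtrSND1-B1 protoplasts. POPTR_0473s00220.1 went from 2.98 ± 2.11 to 24.1 ± 21.7 CPM (SD, n = 3), which is 2.84 on the log2 scale with an SE of 0.351 (adjusted p = 0.000512, edgeR). Its difference from the control change was -0.85, with a 95% interval of -2.07 to 0.37. POPTR_0001s46340.1 went from 2.4 ± 0.497 to 37.8 ± 33.4 CPM, which is 3.69 on the log2 scale with an SE of 0.513 (adjusted p = 0.00104, edgeR), and its difference had an interval of -1.19 to 1.22. POPTR_0014s11370.1 and POPTR_0019s14280.1 changed by -2.75 and -1.86 (edgeR adjusted p = 0.00669 and 0.0165). Their intervals of the difference ran from -1.98 to 1.13 and from -1.02 to 1.54. In PtrSND1-B1 protoplasts at 7 h the order of the numbers for both was again 2, 1, 3, at 36.5, 11.2 and 4.59 CPM for POPTR_0014s11370.1 and 18.4, 4.08 and 2.64 CPM for POPTR_0019s14280.1.

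**Figure D4:**
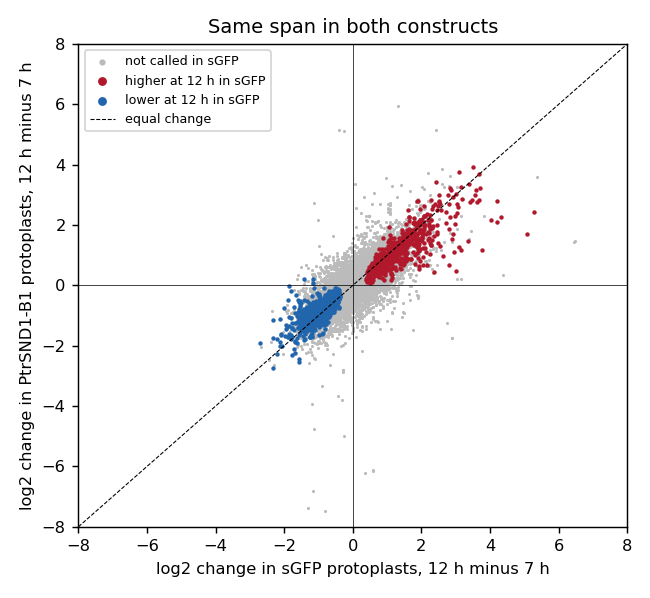
Log2 change from 7 to 12 h in PtrSND1-B1 protoplasts (vertical axis) against that in sGFP protoplasts (horizontal axis), a point for each of 23777 genes. Genes called in sGFP are red (688 higher) or blue (846 lower), and all but 3 of them lie on the same side of 0 in both constructs, as do 79.9% of all genes tested. The dashed line marks equal change.

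The later libraries place the genes on a longer course. The genes were chosen by their step from 7 to 12 h in sGFP libraries, so that step there is no separate result. The median level of the rising genes, taken in each library and then averaged, was 10.6 ± 0.344 CPM at 7 h, 23.1 ± 2.16 at 12 h and 35.9 ± 2.08 at 25 h (SD, n = 3 sGFP libraries). In PtrSND1-B1 libraries it was 12 ± 0.615, 23 ± 2.13 and 35.2 ± 2.34 CPM. The falling genes went from 35.1 ± 0.529 to 19.9 ± 1.71 and 12.7 ± 0.854 CPM in sGFP, and from 31.8 ± 1.23 to 19.5 ± 1 and 12.2 ± 1.05 CPM in PtrSND1-B1 libraries. From 12 to 25 h in sGFP protoplasts, a comparison that shares the 12 h libraries, 299 of the 688 rising genes rose again, 44 fell and 345 were not called, while 392 of the 846 falling genes fell again and 2 rose. The PtrSND1-B1 libraries are not among the 6 of the control comparison but were in the same fit. In them the same step raised 302 of the rising genes and lowered 43. It lowered 357 of the falling genes and raised 0. Over all genes tested, 9.34% were called from 12 to 25 h in sGFP protoplasts (4.44% higher and 4.9% lower) and 8.59% in PtrSND1-B1 protoplasts (3.91% higher and 4.68% lower).

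**Figure D5:**
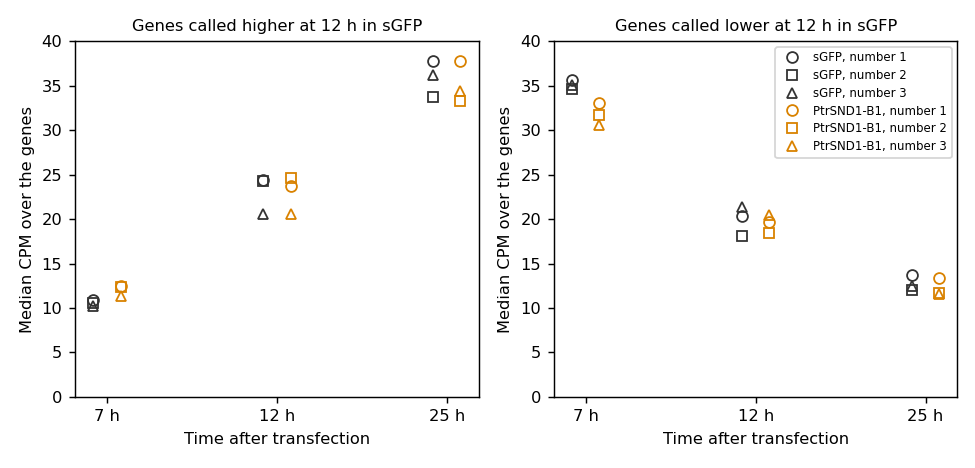
Median CPM over the 688 genes called higher (left) and the 846 called lower (right) at 12 h in sGFP protoplasts, for each library at 7, 12 and 25 h, with sGFP libraries dark and PtrSND1-B1 libraries orange. In the left panel the sGFP libraries go from 10.3 to 10.9 CPM at 7 h to 20.6 to 24.4 CPM at 12 h, and all 25 h libraries of both constructs are above 33 CPM. The sGFP step from 7 to 12 h is the one by which the genes were chosen.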

How the data were processed

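The deposited file holds raw counts, whole numbers of reads per gene model for 18 libraries. Per the submitters' processing notes TopHat and edgeR were used, with no version. The genome build, annotation, counting tool, strandedness and handling of multiply mapping reads are not given in the sources, so counts of near-identical, overlapping or antisense genes are uncertain. Of 45033 models the 40668 listed first for their locus were used. With edgeR 4.0.16 (R 4.3.3), filterByExpr kept 23777, TMM factors were 0.797 to 1.09, and a quasi-likelihood model with 6 group means and the replicate number as a block was fitted to all 18 libraries (10 residual degrees of freedom). It was also run on counts simulated from this same fit with 200 genes changed. Those counts held no deviations shared between constructs beyond the block, so that run does not cover them. The block follows the definition of the comparison. The labels do not call a number a batch, but same-numbered control libraries of 7 and 12 h deviated together (correlations of 0.327, 0.471 and 0.648). SE is the log2 change divided by the square root of F, and intervals use it. Differences inside pairs use log2 CPM with a prior count of 2. Named genes are the 2 largest rises and the 2 largest falls at 5 CPM or more that were called and moved alike in the 3 pairs. No identifier matched the reference gene table (0 of 40668 loci), so gene lists, motifs and sequences were not analysed here. The comparison, rules and tests were chosen with earlier results of these data known. Alternatives were no block, subsets of libraries, RLE or library size as scaling, no filter, all models, DESeq2 1.42.0 and omitted libraries. The reads carry no molecular identifiers, so a count can hold copies of a molecule, and the limits set by counts are for counting error only.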

Additional observations from a re-analysis of the deposited data

How the results depend on the processing

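The control total of 1534 (688 higher, 846 lower) became 55 (36 and 19) with no replicate block and 278 (151 and 127) with the replicate block and only the 9 sGFP libraries. With both 12 h libraries of number 1 omitted, an alternative chosen after seeing the data, it became 895 (480 and 415). Omitting replicates singly or by number gave 95 to 1923 in all, 77 to 941 higher and 18 to 982 lower. It stayed within 1.5 times with the 6 libraries of 7 and 12 h alone (1701), RLE (1502), library size alone (1317, of which 36.6% higher), no low-count filter (1273), all models (1725) and DESeq2 (1764). Of these, the 6 libraries alone (936 higher, 765 lower) and no low-count filter (676 and 597) had more rises than falls. The others had more falls. With the 6 libraries alone, 1137 of the 1534 genes were called again, which is 66.8% of the 1701. That fit has fewer residual degrees of freedom than the full fit, so its like total is not the same list of genes. All 1534 genes kept their direction without the block, with RLE, library size alone, no filter, all models and DESeq2. The PtrSND1-B1 total of 1708 became 49 with no replicate block, 1036 with both 12 h libraries of number 1 omitted and 61 to 2139 when a number was omitted. The count of 0 differences between constructs was 0 under each alternative run for it. None of these alternatives had a term for the deviations shared between constructs. Of 18 alternatives, each named rise kept its call in 17 and each named fall in 12, with log2 changes of 3.43 to 3.88 (POPTR_0473s00220.1), 3.2 to 4.56 (POPTR_0001s46340.1), -2.64 to -1.71 (POPTR_0014s11370.1) and -2.56 to -1.43 (POPTR_0019s14280.1). The causes were not tested. The floor of 3 counts for a gene at 0 is 0.329 to 0.847 CPM in the 6 libraries.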

Other observations

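Genes that changed alike often carried consecutive locus numbers. Among the 688 genes that rose, 123 (17.9%) had a gene with the next or previous locus number of the same scaffold prefix that also rose, where 793 of the 23777 genes tested (3.34%) had such a rising neighbour. Among the 846 that fell, 131 (15.5%) had a falling neighbour, where 1038 genes (4.37%) did. Whether reads shared between close copies contribute was not tested, and the numbering was taken from the identifiers alone.

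Of the 44 genes that were higher at 12 h and lower again at 25 h in sGFP protoplasts, whose median log2 changes were 1.31 and -1.37, 37 were also called lower from 12 to 25 h in PtrSND1-B1 protoplasts and all 44 had a value below 0 there. Over all genes tested, 4.68% were called lower over that span in PtrSND1-B1 protoplasts. Same-numbered 12 h libraries of both constructs deviated together from their group means (correlations of 0.62 to 0.746), and the part of this in the shared pattern was not tested.

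Among the 5 most abundant genes, 3 had a higher level at 12 h than at 7 h without a call. Their changes were 0.84 to 0.92 on the log2 scale (edgeR adjusted p of 0.0983 to 0.139). The other 2 genes had changes of -0.029 and 0.081. The 3 genes with the higher level lie close together in the order of the identifiers. Whether they share reads was not tested, so they are not counted here as separate results.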
